A study of Mus musculus with 8 samples.

Results

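The dopamine receptor genes Drd1, Drd2, Drd3 and Drd5 were followed through the striatum of 8 inbred mouse strains. They are 4 of the 32285 genes in the deposited count matrices, and they were taken by gene symbol, over every annotated cluster of nuclei and every strain. Nuclei came from 32 mice, 12 weeks old, 4 of each strain, with no treatment or engineered allele named. The strains were the wild-derived CAST/EiJ, PWK/PhJ and WSB/EiJ and the classical laboratory strains C57BL/6, 129S1/SvImJ, A/J, NZO/HlLtJ and NOD/ShiLtJ. In each of the 4 batches, 8 mice, 1 per strain, were mixed as nuclei ahead of the droplet step, with males and females in equal number; the sex of single mice was not used here. C57BL/6 is written C57BL/6J in the series' design text and C57BL/6NJ in the deposited table of nuclei, and NZO/HlLtJ is written NZO/H1LtJ in the design text.

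Dopamine receptors are G protein coupled receptors of 2 classes. Drd1 and Drd5 encode the D1-class receptors, which couple to stimulatory G proteins and raise cyclic AMP, and Drd2 and Drd3 encode D2-class receptors, which couple to inhibitory G proteins and lower it. In the striatum, Drd1 is known for the projection neurons of the direct pathway and Drd2 for those of the indirect pathway and for cholinergic interneurons. Drd3 is best known from the ventral striatum and the islands of Calleja, and Drd5 from cholinergic interneurons and the cortex.

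The 4 genes lie on 4 chromosomes of the RefSeq GRCm38.p6 annotation. Drd1 is on chromosome 13 at 54051183 to 54055658 (minus strand), Drd2 on chromosome 9 at 49340360 to 49408177, Drd3 on chromosome 16 at 43754015 to 43825982 and Drd5 on chromosome 5 at 38319509 to 38322523 (all plus strand). The deposited index of 291715 accessible regions places 22 of them over the 67818 bases of Drd2, 11 over the 71968 bases of Drd3, and 1 each over Drd1 (4476 bases) and Drd5 (3015 bases). Of the listed starts, that of Drd5 and the inner one of the 2 Drd1 starts (54054780) lay in an accessible region, as did 48.4% of 32851 RefSeq starts. The outer Drd1 start (54055658) lay 1258.5 bases from the nearest region centre, the Drd2 start (49340403) 624.5 bases and the Drd3 start (43762221) 1323.5 bases, with the centre on the downstream side in all 3.

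The sequences just before the first base of 3 of the genes are shown because these stretches lie wholly outside the annotated gene. They run 5′ to 3′ on the gene's strand and come from the RefSeq promoter table of GRCm38.p6. Capitals mark GC boxes, searched as GGGCGG and, for the other strand, CCGCCC, with no overlap between the matches. The listed Drd3 start lies inside the annotated gene, so no Drd3 sequence is shown.
Drd1 (chr13:54055659-54055908): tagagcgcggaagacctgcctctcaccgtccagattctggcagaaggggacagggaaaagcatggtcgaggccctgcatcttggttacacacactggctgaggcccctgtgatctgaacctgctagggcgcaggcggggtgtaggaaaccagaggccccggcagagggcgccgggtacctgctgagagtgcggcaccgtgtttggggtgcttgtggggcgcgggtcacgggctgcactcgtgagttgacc
Drd2 (chr9:49340153-49340359): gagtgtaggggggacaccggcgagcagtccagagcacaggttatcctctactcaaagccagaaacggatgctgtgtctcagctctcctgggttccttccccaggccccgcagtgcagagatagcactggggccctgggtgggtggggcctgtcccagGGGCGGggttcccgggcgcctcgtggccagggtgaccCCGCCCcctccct
Drd5 (chr5:38319259-38319508): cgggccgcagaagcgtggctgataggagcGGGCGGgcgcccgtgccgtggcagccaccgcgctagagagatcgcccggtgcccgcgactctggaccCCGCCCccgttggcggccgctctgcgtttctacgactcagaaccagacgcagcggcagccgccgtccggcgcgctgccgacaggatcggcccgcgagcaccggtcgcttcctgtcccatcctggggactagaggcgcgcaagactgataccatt
The Drd1 sequence held 0 GC boxes and 15 CpG dinucleotides at 64.0% G+C. The 250 bases before the inner Drd1 start held 1 GC box and 5 CpG at 60.8% G+C. The Drd2 sequence held 2 GC boxes and 9 CpG in 207 bases (67.6% G+C), and the Drd5 sequence 2 GC boxes and 35 CpG (71.2% G+C). Of all 32851 RefSeq windows of 250 bases, 32.7% held the motif, and the median window had 6 CpG and 52.4% G+C. A match is only a description of these letters.

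The analysis covered 55672 nuclei that the authors kept of 89339 barcodes, in 18 annotated clusters and with 258962399 counts, each count being 1 unique molecular identifier (UMI). A mouse gave 944 to 4416 nuclei, and the median nucleus had 4329 UMIs. Batch 3 stood apart, with 48.5% of its barcodes kept against 67.0% to 68.2% in the others and a median of 3232 UMIs against 4593 to 4931. Barcode sequences found in more than 1 batch numbered 1517 (3048 kept nuclei), and a nucleus was therefore identified by its batch and barcode. The cluster names are the authors' own. The 5 markers of projection neurons in general, among them Ppp1r1b, Rgs9, Pde10a and Bcl11b, summed to 4604 CPM (counts per 1000000 counts) in the cluster named Drd1+ neuron and 5010 in Drd2+ neuron, against 445 in oligodendrocytes.

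Across the clusters, Drd1 was highest in the 2 clusters the authors named for it and Drd2 in the Drd2+ neurons and the Chat+ (cholinergic) interneurons. Drd3 was highest in the smaller cluster of Drd1+ neurons, and Drd5 in Chat+ interneurons. These are descriptions with no test, since the authors built and named the clusters on these nuclei. CPM values here are pooled over the nuclei of a cluster with exact Poisson intervals, shares of nuclei carry exact binomial intervals (both at 95%), and both cover counting error only. UMI counts are not scaled by gene length, so levels are compared within a gene and not between genes. Where Drd1 and Drd2 counts are set side by side below, they are numbers of UMIs and do not show which gene is more expressed.

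Drd1 stood at 219 CPM (216 to 222) in 15395 Drd1+ neurons, of which 72.2% had at least 1 Drd1 UMI. In the 1506 nuclei named Drd1+ neuron_2, called second Drd1+ neurons here, it stood at 184 CPM (174 to 194) and 48.7% of nuclei. Their median depth was 4539 UMIs against 6505, and after every nucleus was thinned to 1000 UMIs the shares were 16.97% and 19.7%. Per mouse, the level was 226 ± 49.3 CPM (SD, n = 32) in Drd1+ and 190 ± 59.4 (n = 32) in second Drd1+ neurons. With levels scaled separately in each cluster, as explained below, Drd1 was higher in Drd1+ neurons in 20 of the 32 mice. That count depends on the scaling. The second cluster is the one in which all 5 markers of eccentric projection neurons (Otof, Casz1, Col11a1, Tshz1, Pcdh8) were highest, at a summed 1021 CPM against 54.4 in Drd1+ neurons.

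The third highest Drd1 level was in Sst+ interneurons, GABAergic cells that release somatostatin. It was 119 CPM (95.7 to 146) in 165 nuclei, 33.9% of them with a Drd1 UMI. Thinned to 1000 UMIs that share was 11.7%, against 2.16% in oligodendrocytes. Only 2 mice had 10 or more such nuclei, at 125 and 150 CPM, and these lay inside the range of second Drd1+ neurons. The summed markers of projection neurons in general reached 1521 CPM in this cluster, and their part in its Drd1 level was not tested.

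Mural cells (69.1 CPM), ependyma (52.5 CPM) and endothelium (49.9 CPM) followed for Drd1, and the other clusters lay between 4.15 CPM in Chat+ interneurons and 39.5 CPM in the small cluster named Unknown_2. In those 3 clusters the markers of projection neurons in general also summed to 3551, 1898 and 1831 CPM. How far such RNA makes up their receptor counts was not tested. Oligodendrocytes, which serve here as a cell type taken to lack these receptors, had 21.0 CPM of Drd1 and 3.47% of nuclei with a UMI at a median of 1640 UMIs. Drd2+ neurons had 10.2 CPM and 5.01%, which fell to 0.857% after thinning, below the oligodendrocytes' thinned 2.16%. Oligodendrocytes were also the shallower nuclei, which limits this comparison. Drd1 UMIs in Drd2+ neurons were therefore read neither as expression nor as its lack, and their source was not tested. The counts were not spread alike over nuclei: 17 Drd2+ neurons had 4 or more Drd1 UMIs (9 at most), and 0 of 12066 oligodendrocytes did (3 at most).

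Drd2 stood at 437 CPM (433 to 442) in 13203 Drd2+ neurons, of which 85.7% had a Drd2 UMI, and at 427 ± 60.4 CPM per mouse (SD, n = 32). In the 120 Chat+ interneurons it was 324 CPM, with a UMI in 77.5% of nuclei. Thinned to 1000 UMIs the shares were 33.9% and 27.7%. Only 3 mice had 10 or more Chat+ nuclei, at 301 to 411 CPM, inside the range of Drd2+ neurons.

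Summed over the mice of a strain, Drd2 in Chat+ interneurons ran from 260 CPM in C57BL/6 (9 nuclei) to 351 CPM in A/J (21 nuclei). The share of these nuclei with a Drd2 UMI ran from 8 of 17 in NZO/HlLtJ (47.1%) and 13 of 21 in A/J (61.9%) to all nuclei in 129S1/SvImJ (13), NOD/ShiLtJ (12) and C57BL/6 (9), with too few nuclei per mouse for a test. The order of the shares was not that of the levels, C57BL/6 having the lowest level and every nucleus with a UMI. Of the cholinergic markers, 4 of the 5 were highest in this cluster. Mural cells followed at 165 CPM, ependyma at 79.2 CPM and endothelium at 73.1 CPM. The markers of indirect pathway neurons (Penk, Adora2a, Gpr6, Sp9, Gpr52) summed to 637, 309 and 369 CPM there, against 1414 in Drd2+ neurons and 125 in Drd1+ neurons. Drd1+ neurons had 11.9 CPM of Drd2 and 4.64% of nuclei with a UMI. The thinned share was 0.786%, below the 1.35% of the shallower oligodendrocytes, and it too was read neither as expression nor as its lack. Its source was not tested. Drd2 UMIs of 4 or more were counted in 75 of 15395 Drd1+ neurons, up to 13 in a nucleus, and in 1 of 12066 oligodendrocytes. Second Drd1+ neurons had 20.01 CPM of Drd2 (16.9 to 23.5), against 15.2 (13.5 to 16.9) in oligodendrocytes, and a thinned share of 1.34%. No Drd2 UMI was seen in 132 fibroblasts at a median of 1644 UMIs; 3 counts of those nuclei would be a share of 2.27%, a limit on nuclei with a UMI and not on nuclei that express the gene.

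Of the sum of Drd1 and Drd2 counts, Drd1 made up 94.8% in Drd1+ neurons, 90.2% in second Drd1+ neurons and 2.28% in Drd2+ neurons. The Drd1 share was 58.1% in oligodendrocytes, 61.8% in astrocytes and 55.3% in macrophages. It was lower in mural cells (29.5%), endothelium (40.5%), ependyma (39.9%) and Nxph1+ interneurons (36.2%), beside 40.6% over all barcodes of the 4 matrices. The Polydendrocyte/Oligodendrocyte cluster lay between them at 52.9% (44.2% to 61.3%), an interval that overlapped those of oligodendrocytes (54.5% to 61.6%) and of endothelium (36.3% to 44.9%). The intervals cover counting error only, and differences between these clusters were not tested over mice.

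**Figure D1:**
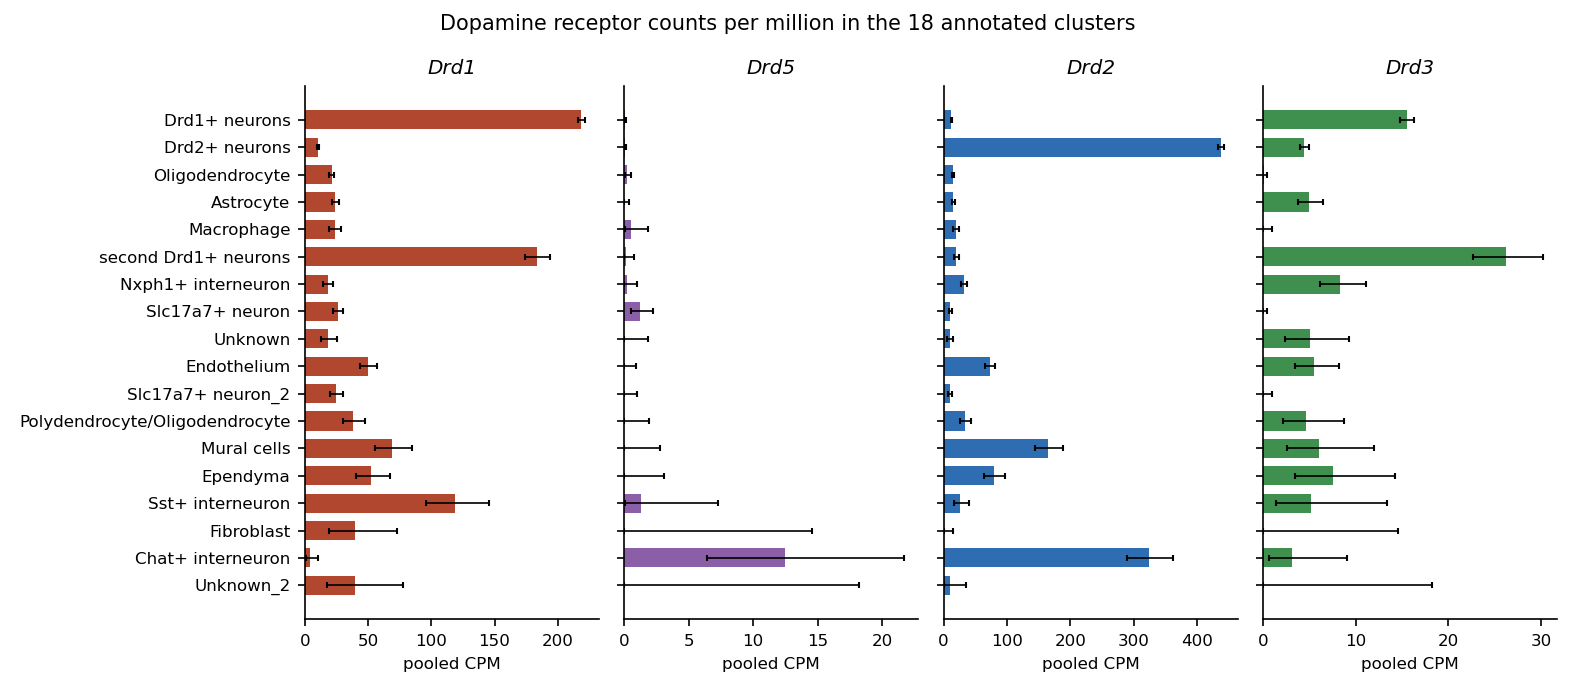
Pooled level (CPM, horizontal axis, a separate linear scale from 0 for each gene) of Drd1, Drd5, Drd2 and Drd3 in the 18 annotated clusters (rows), with exact 95% Poisson intervals as error bars. Drd1 peaks at 219 CPM in Drd1+ neurons, Drd2 at 437 in Drd2+ neurons, Drd3 at 26.2 in second Drd1+ neurons and Drd5 at 12.4 in Chat+ interneurons.

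Drd3 stood at 26.2 CPM (22.6 to 30.2) in second Drd1+ neurons, with a UMI in 9.76% of nuclei, and at 15.5 CPM (14.7 to 16.3) in Drd1+ neurons, with a UMI in 7.80% (1201 nuclei). Drd2+ neurons had 4.45 CPM and 2.13% (281 nuclei). Nxph1+ interneurons lay between them at 8.35 CPM. Oligodendrocytes had 3 Drd3 counts in 12066 nuclei (0.141 CPM), and 0 counts were found in either Slc17a7+ (excitatory) cluster, in macrophages and in fibroblasts. The level in Drd2+ neurons (4.00 to 4.93 CPM) was no higher than in several non-neuronal clusters, with 4.99 CPM in astrocytes (3.77 to 6.48), 4.61 in the Polydendrocyte/Oligodendrocyte cluster, 5.46 in endothelium, 6.08 in mural cells and 7.51 in ependyma. After thinning to 1000 UMIs, 0.440% of Drd2+ neurons and 0.518% of astrocytes had a Drd3 UMI, against 1.52% of Drd1+ and 2.75% of second Drd1+ neurons. The source of the Drd3 UMIs in Drd2+ neurons was not tested. Per mouse, the means were 28.1 ± 18.8, 15.8 ± 7.77 and 4.41 ± 3.10 CPM (SD, n = 32 each) in second Drd1+, Drd1+ and Drd2+ neurons. Within a mouse, Drd3 was higher in Drd1+ than in Drd2+ neurons in 32 of 32 mice, in second Drd1+ than in Drd1+ neurons in 24 of 32, and in second Drd1+ than in Drd2+ neurons in 30 of 32. These counts are descriptions with no test, and they compare levels scaled separately in each cluster.

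Drd5 gave 41 counts in 40 of the 55672 nuclei. Chat+ interneurons, 0.216% of the nuclei, held 12 of these counts in 12 nuclei, which is 29.3% of all Drd5 counts. The level there was 12.4 CPM and the share 10.0% of nuclei (5.27% to 16.8%), and 10 of the 12 nuclei also had a Drd2 UMI. The 12 nuclei came from 8 mice of 5 strains. Slc17a7+ neurons held 9 counts in 8 of 955 nuclei (0.838%), Drd1+ neurons 7 counts (0.0455% of nuclei), oligodendrocytes 5 (0.0414%) and Drd2+ neurons 3 (0.0227%). The shares in Drd1+ and Drd2+ neurons were close to or below that in oligodendrocytes, at median depths of 6505, 5953 and 1640 UMIs, and were not read as expression. Reads of Drd5 may overlap those of Gm26560, which overlaps Drd5 in the annotation and is also in the files, and how strand was treated in counting is not given in the sources used here.

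Whether the genetic background moved receptor levels was asked within clusters, with counts summed per mouse. A strain difference in the number of nuclei of a cluster does not enter these levels. A difference in the mix of neurons inside a cluster can enter them, and its part was not tested. From here on, receptor and pathway gene CPM by mouse and strain use TMM-scaled library totals (a trimmed-mean scaling that offsets differences in composition). The means and ranges per mouse given above, and all marker sums, use raw totals. The numbers of mice with the higher level in a cluster, given above, compare TMM-scaled values. Each cluster was scaled in its own fit, over the genes tested there. These were 13431 genes in Drd1+, 12799 in Drd2+ and 5544 in second Drd1+ neurons. Fewer genes make smaller totals, which raises the CPM in second Drd1+ neurons. TMM-scaled levels of different clusters are therefore not on the same scale. In Drd1+ neurons, Drd1 was highest in CAST/EiJ, WSB/EiJ and A/J and lowest in PWK/PhJ and 129S1/SvImJ. The strain term passed the test for Drd1 (adjusted p = 6.09e-11, edgeR quasi-likelihood F test, Benjamini-Hochberg over 13431 genes). In the same test 61.7% of all genes tested were called, so a call alone does not set Drd1 apart.

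CAST/EiJ mice had 263, 262, 333 and 300 CPM of Drd1 in batches 1 to 4, a mean of 289 ± 33.8 (SD, n = 4). WSB/EiJ mice had 229, 193, 340 and 299 CPM (265 ± 66.5). A/J mice had 248, 200, 303 and 258 CPM (252 ± 42.3). CAST/EiJ was the highest strain in 3 of the 4 batches and among the top 2 in all 4, while WSB/EiJ was highest in batch 3. C57BL/6 mice had 200, 190, 246 and 228 CPM (216 ± 25.7). NZO/HlLtJ mice had 191, 188, 247 and 225 CPM (213 ± 28.2). NOD/ShiLtJ mice had 205, 188, 219 and 224 CPM (209 ± 16.4). These 3 strains lay in the middle of every batch. 129S1/SvImJ mice had 178, 166, 215 and 204 CPM (191 ± 22.9). PWK/PhJ mice had 167, 172, 189 and 174 CPM (176 ± 9.57), and were the lowest in 3 batches. PWK/PhJ and 129S1/SvImJ were the lowest pair in every batch, and no PWK/PhJ mouse reached any CAST/EiJ mouse.

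Set against the mean of the other 7 strains, Drd1 was 0.43 log2 higher in CAST/EiJ (SE 0.05, adjusted p = 1.24e-08 by edgeR, where 32.8% of genes were called). It was 0.26 higher in WSB/EiJ (adjusted p = 4.2e-04, 17% called) and 0.19 higher in A/J (adjusted p = 0.00952, 17.2% called). In PWK/PhJ it fell by 0.38 (SE 0.06, adjusted p = 6.94e-07, 34.3% called) and in 129S1/SvImJ by 0.26 (adjusted p = 0.00106, 12.3% called). Of the 28 pairs of strains, 18 differed in Drd1, where a pair called 20.1% of genes on average. Neighbours in the order of means did not differ beyond their spread (adjusted p 0.0508 to 0.919). Without the batch as a block, 2 strains and 8 pairs passed instead of 5 and 18.

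The share of Drd1+ neurons with a Drd1 UMI followed the same order at its ends, from 62.3% in PWK/PhJ to 77.6% in CAST/EiJ (adjusted p = 9e-05, permutation within batches, two-sided, over 9 shares tested). The raw p of 1e-05 is the smallest that 100000 resamples can give. Thinned to 3000 UMIs per nucleus the shares were 40.2% and 54.5%, with the same adjusted p. Marker sums of projection neurons in general in this cluster ran from 3799 CPM in NZO/HlLtJ to 5130 in CAST/EiJ, with PWK/PhJ at 4495. Those of direct pathway neurons (Tac1, Pdyn, Isl1, Eya1, Chrm4) ran from 355 in C57BL/6 to 622 in NOD/ShiLtJ. Their part in the Drd1 differences was not tested.

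The strain term of Drd1 did not pass in the other clusters tested for it. Its adjusted p was 0.325 in second Drd1+ neurons (17.3% of genes called), 0.117 in Drd2+ neurons (55.9% called), 0.794 in oligodendrocytes (34.8% called), 0.331 in astrocytes (21.5% called) and 0.293 in endothelium (3.23% called). A test of the difference between Drd1+ and Drd2+ neurons did not separate the strain effects on Drd1 (adjusted p = 0.911, with 4.58% of 13791 genes called), and neither did one between Drd1+ and second Drd1+ neurons (adjusted p = 0.820, with 4.25% of 12440 genes called), so the effect is not shown to be particular to Drd1+ neurons. In Drd2+ neurons 1 strain alone, CAST/EiJ, stood above the mean of the other 7, by 0.53 log2 (SE 0.16, adjusted p = 0.00989 by edgeR, 28.1% of genes called). The CAST/EiJ level there was 13.9 ± 5.47 CPM (SD, n = 4, from 7.15 to 20.5), and the other strains had means of 8.79 to 10.8 CPM, so the ranges overlapped. The call was lost without batch 4 (0.31 log2, adjusted p = 0.231) and in nuclei of medium depth (0.21 log2, adjusted p = 0.647).

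In Drd2+ neurons, Drd2 varied less among the strains. The strain term missed the threshold (adjusted p = 0.0633, edgeR) where 55.9% of genes passed it. A/J mice had 499, 527, 364 and 490 CPM in batches 1 to 4, a mean of 470 ± 72.3 (SD, n = 4). C57BL/6 mice had 519, 497, 382 and 429 CPM (457 ± 62.8). CAST/EiJ mice had 453, 481, 290 and 332 CPM (389 ± 92.4), the lowest mean. Batch 3 gave the lowest value in every strain and the batch means were 471, 486, 345 and 419 CPM, so batches lay further apart than strains. The other 5 strains had means of 410 to 441 CPM and ranges that overlapped both ends.

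CAST/EiJ was the single strain that passed against the mean of the other 7, at −0.17 log2 (SE 0.06, adjusted p = 0.0321 by edgeR, where 28.1% of genes were called). This call was lost with DESeq2 in place of edgeR, without the batch block and in nuclei of medium depth. Not every fit that left out a batch kept it, and the difference then ran from −0.23 to −0.11 log2. Of the 28 pairs, 2 differed, where a pair called 17.6% of genes on average. The share of Drd2+ neurons with a Drd2 UMI ran from 81.3% in CAST/EiJ to 88.1% in A/J (adjusted p = 0.00524, permutation within batches). Thinned to 3000 UMIs it ran from 66.4% in CAST/EiJ to 71.0% in WSB/EiJ and missed the threshold (adjusted p = 0.582). CAST/EiJ nuclei of this cluster had a median of 5550 UMIs and A/J nuclei 6440.

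Summed over all 3 clusters of projection neurons, Drd2 did pass (adjusted p = 1.25e-04, 70.0% of genes called), as did Drd1 (3.41e-10) and Drd3 (0.00161). Such sums move with the mix of the clusters. Drd1+ neurons were 21.0% of nuclei in NOD/ShiLtJ and 26.9% to 30.6% in the other strains, and Drd2+ neurons were 22.0% to 26.1%. Without the batch block, the Drd2 call was lost (adjusted p = 0.288).

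**Figure D2:**
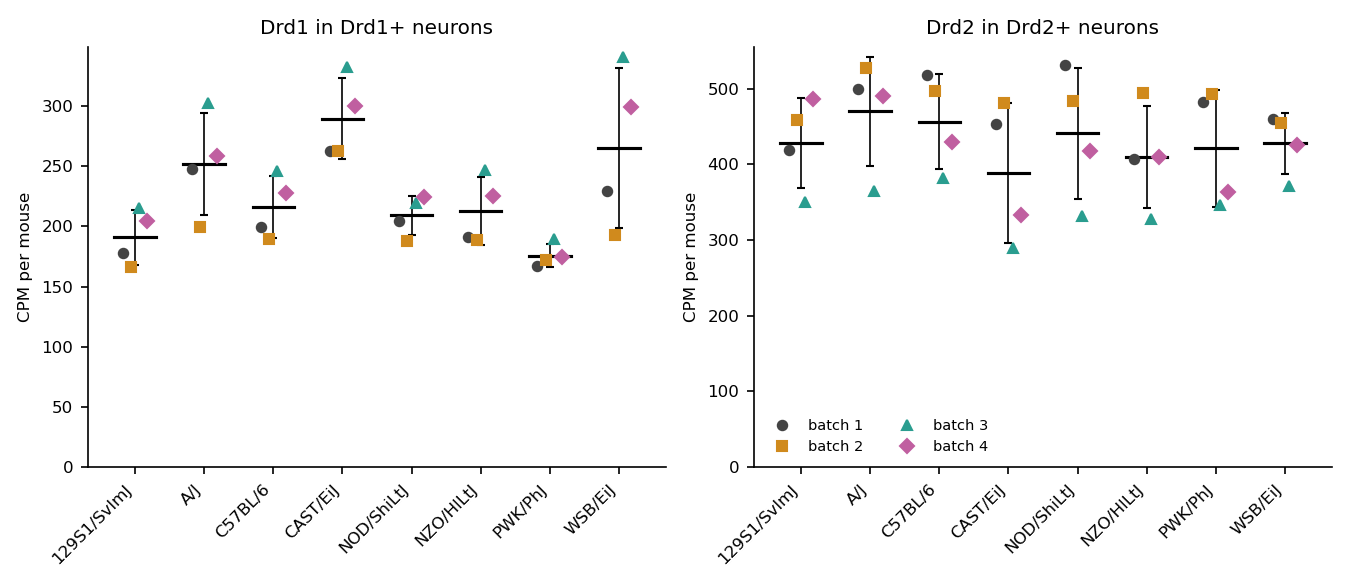
Level (CPM, vertical axis from 0) per mouse of Drd1 in Drd1+ neurons (left) and of Drd2 in Drd2+ neurons (right), by strain. Symbols are mice, marked by batch, horizontal lines are strain means and bars ± 1 SD (n = 4). Drd1 means run from 176 in PWK/PhJ to 289 in CAST/EiJ, and for Drd2 the batch 3 mice lie lowest in every strain.

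The strain term of Drd3 passed in all 3 clusters of projection neurons, though in Drd2+ neurons it was lost in several alternatives given below. The strains at the ends were not the same in each. In Drd1+ neurons NZO/HlLtJ was highest, with 39.6, 33.3, 24.8 and 19.4 CPM in batches 1 to 4 (29.3 ± 8.96, SD, n = 4). CAST/EiJ followed with 16.6, 25.6, 24.3 and 22.9 CPM (22.3 ± 3.97). The lowest means belonged to NOD/ShiLtJ, with 8.46, 8.77, 10.2 and 11.7 CPM, and PWK/PhJ, with 3.07, 12.8, 8.00 and 15.4 CPM. NZO/HlLtJ was highest in 3 of 4 batches, and no NOD/ShiLtJ or PWK/PhJ mouse reached the lowest NZO/HlLtJ mouse. The remaining strains lay between 5.03 and 19.9 CPM in single mice.

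The strain term of Drd3 in Drd1+ neurons had an adjusted p of 0.00227 (edgeR, 61.7% of genes called). NZO/HlLtJ was 1.18 log2 above the mean of the other strains (SE 0.23, adjusted p = 7.1e-04 by edgeR, 19.7% of genes called). CAST/EiJ was 0.66 above it (SE 0.26, adjusted p = 0.04996 by edgeR, just under the threshold, 32.8% called). In nuclei of medium depth alone the CAST/EiJ call was lost (adjusted p = 0.0825). Not every fit that left out a batch kept both calls, and the CAST/EiJ difference then ran from 0.59 to 0.75 log2. The share of Drd1+ neurons with a Drd3 UMI ran from 5.13% in PWK/PhJ to 13.8% in NZO/HlLtJ (adjusted p = 5.4e-04, permutation within batches), and thinned to 3000 UMIs the NZO/HlLtJ share was 8.09% (adjusted p = 9.45e-04). With at least 2 UMIs required, the share missed the threshold (adjusted p = 0.0985). Beside these values, NZO/HlLtJ had the lowest sum of projection neuron markers in this cluster, 3799 CPM. The part of that in the Drd3 level was not tested.

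In Drd2+ neurons Drd3 was scarce, and NZO/HlLtJ and PWK/PhJ stood at the ends. NZO/HlLtJ mice had 14.1, 11.3, 6.47 and 3.96 CPM in batches 1 to 4. PWK/PhJ mice had 0, 1.88, 0.604 and 1.26 CPM, from 8 counts in 1556 nuclei. No PWK/PhJ mouse reached any NZO/HlLtJ mouse. NZO/HlLtJ also had the lowest sum of projection neuron markers in this cluster, 4095 CPM, and its part in the Drd3 level was not tested. NZO/HlLtJ was 1.42 log2 above the mean of the others (SE 0.39, adjusted p = 0.0117 by edgeR, 18.5% of genes called) and PWK/PhJ fell by 2.29 below it (SE 0.71, adjusted p = 0.0162, 30.3% called). The strain term (adjusted p = 0.0341, 55.9% called) was lost without batch 1 (0.122), batch 2 (0.0594) or batch 3 (0.169), and in nuclei of medium depth (0.147). The NZO/HlLtJ call was lost without batch 1 (adjusted p = 0.125) or batch 3 (0.0635), and the PWK/PhJ call without batch 1 (0.0837) or batch 3 (0.0932) and in nuclei of medium depth (0.128). The test of the difference between Drd1+ and Drd2+ neurons did not separate the strain effects on Drd3 (adjusted p = 0.387), but it did without batch 4 (0.0282) and without the filter on low counts (0.0251).

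In second Drd1+ neurons the order changed, and NOD/ShiLtJ was highest. Its mice had 40.3, 64.0, 104 and 55.4 CPM of Drd3 (66.0 ± 27.4, SD, n = 4), the highest value in all 4 batches, from 43 counts in 137 nuclei. CAST/EiJ mice had 0, 7.74, 29.7 and 6.32 CPM (10.9 ± 12.96), from 9 counts in 199 nuclei. PWK/PhJ mice had 13.3, 14.3, 18.9 and 7.99 CPM. NZO/HlLtJ mice had 40.0, 32.7, 24.4 and 45.2 CPM and overlapped the lower NOD/ShiLtJ mice. NOD/ShiLtJ thus had the most Drd3 here and one of the 2 lowest means in Drd1+ neurons, whereas CAST/EiJ was low here and second there.

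NOD/ShiLtJ was 1.41 log2 above the mean of the others in second Drd1+ neurons (SE 0.32, adjusted p = 0.00378 by edgeR, where 1.97% of genes were called). Without batch 2 this call was lost. CAST/EiJ (−1.40, SE 0.47, adjusted p = 0.0543) and PWK/PhJ (−1.22, SE 0.43, adjusted p = 0.0646) missed the threshold, as did NZO/HlLtJ (0.46, adjusted p = 0.615). In the contrasts of CAST/EiJ, PWK/PhJ, NZO/HlLtJ, WSB/EiJ, C57BL/6, A/J and 129S1/SvImJ, 6.15%, 8.51%, 3.25%, 3.3%, 3.1%, 2.24% and 1.05% of genes were called. The strain term had an adjusted p of 0.00188 (17.3% of genes called). Mice with 10 or more Drd3 counts here were of NOD/ShiLtJ (11, 13 and 12), 129S1/SvImJ (10) and A/J (10). Drd3 may thus have passed the filter on low counts through the strain in which it was high. Without that filter the strain term had an adjusted p of 3.15e-04 (edgeR). Leaving the filter out also moved Drd3 in Drd1+ neurons, where Drd3 had passed it, from 0.00227 to 3.93e-29. The unfiltered fit thus changed more than which genes were tested, and it does not settle this point. In nuclei of medium depth Drd3 was not tested in this cluster. The share of nuclei with a Drd3 UMI was lowest in CAST/EiJ (3.72%) and highest in NOD/ShiLtJ (20.7%; adjusted p = 6.9e-04, permutation within batches); thinned to 3000 UMIs it ran from 1.28% to 12.9% and missed the threshold (adjusted p = 0.0825), as it did with at least 2 UMIs required (0.0985). Eccentric projection neuron markers summed to 1201 CPM in NOD/ShiLtJ, the highest, and to 993 in CAST/EiJ and 839 in WSB/EiJ, the lowest. Their part in the Drd3 order was not tested.

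After these levels had been seen, the strain effects in Drd1+ and second Drd1+ neurons were compared in 1 model with the mouse as a block. They differed for Drd3 (adjusted p = 7.13e-06, edgeR), where 529 of 12440 genes (4.25%) were called, and in the fits that left out each batch (2.02e-05 to 0.00155) and without the block (0.0244). For Drd2 they also differed (adjusted p = 0.00427), but not without the block (0.487) or without batch 2 (0.0884). Thinned shares of nuclei with Drd2 in these 2 clusters were at or below that of oligodendrocytes. Neither cluster alone passed the main strain test for it (edgeR, adjusted p = 0.0575 in Drd1+ and 0.239 in second Drd1+ neurons). In Drd1+ neurons it passed with DESeq2 (0.0192) and without batch 2 (0.00959). Without the filter on low counts it passed in both (1.85e-07 and 0.0415).

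**Figure D3:**
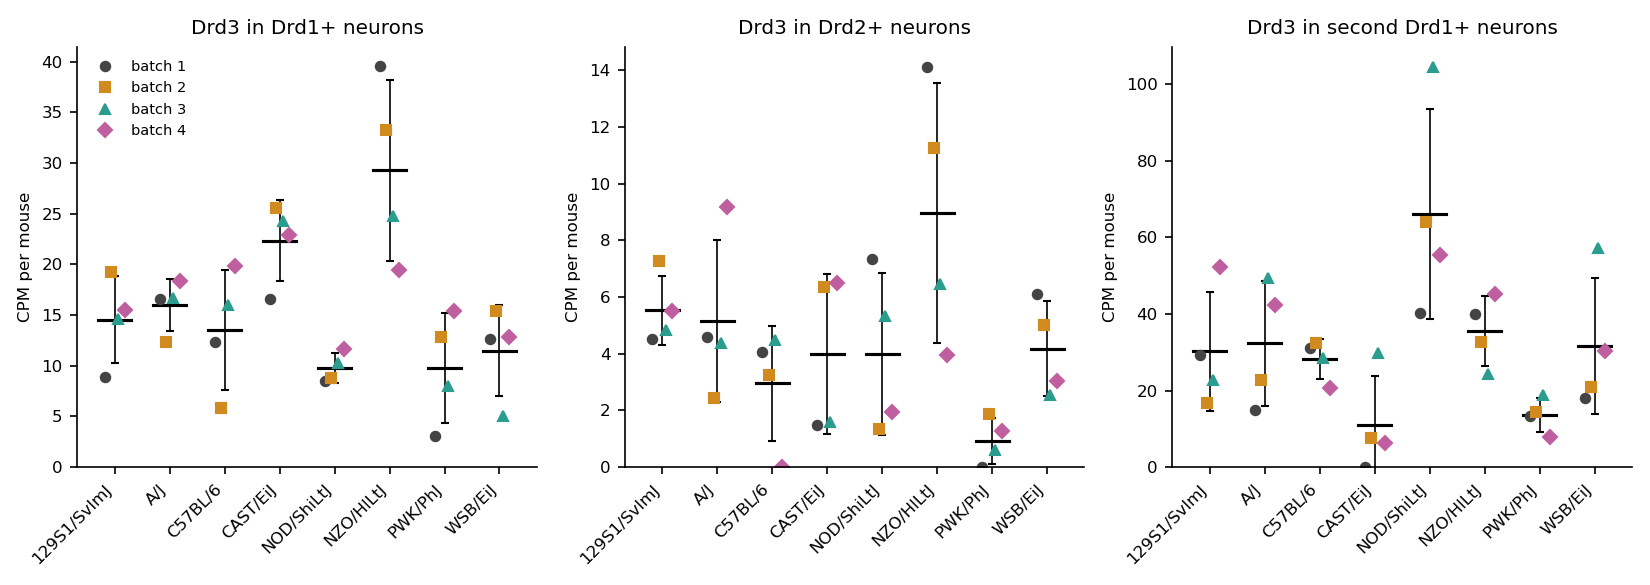
Level (CPM, vertical axis from 0, scaled separately in each panel) per mouse of Drd3 in Drd1+ (left), Drd2+ (middle) and second Drd1+ neurons (right), by strain. Symbols are mice, marked by batch, horizontal lines are strain means and bars ± 1 SD (n = 4). The NZO/HlLtJ mean is highest in the left and middle panels, and the NOD/ShiLtJ mean (mice at 40.3 to 104 CPM) in the right one.

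Drd5 did not pass the filter on low counts in any fitted cluster. Without that filter its strain term had an adjusted p of 0.894 in Drd1+, 0.982 in Drd2+ and 0.993 in second Drd1+ neurons (edgeR). Its share of nuclei did not differ between strains in Drd1+ or Drd2+ neurons (adjusted p = 1 for both, permutation within batches), where 7 and 3 nuclei carried a UMI. A difference between strains was not detectable at this depth.

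Co-detection of the D1-class and the D2-class receptor in 1 nucleus was then counted. UMIs of both Drd1 and Drd2 were found in 532 of 15395 Drd1+ neurons (3.46%, 3.17% to 3.76%), in 594 of 13203 Drd2+ neurons (4.499%, 4.15% to 4.87%) and in 56 of 1506 second Drd1+ neurons (3.72%, 2.82% to 4.80%). If the 2 genes were detected independently in nuclei of the same mouse and the same quartile of depth, 539, 595 and 55.6 nuclei would be counted. The observed counts were 0.986, 0.999 and 1.01 times those numbers. Over all kept nuclei, 1265 (2.27%) had both, 0.266 times the 4754 for independence.

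Most of these nuclei held few UMIs of the second receptor. In Drd1+ neurons with both, Drd1 had more UMIs than Drd2 in 251 nuclei, fewer in 92 and the same number in 189. In Drd2+ neurons with both, Drd2 had more in 449, fewer in 21 and the same number in 124. With at least 2 UMIs of each required, 81, 89 and 7 nuclei remained. Nuclei with both were also deeper, at a median of 8242.5 UMIs against 6687 for Drd1 alone in Drd1+ neurons and 7245.5 against 6100 for Drd2 alone in Drd2+ neurons. Thinned to 3000 UMIs, 0.957%, 1.63% and 1.59% of nuclei had both.

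The share with both did not differ between strains in any of the 3 clusters. In Drd1+ neurons it ran from 2.40% in NZO/HlLtJ to 4.24% in C57BL/6 (adjusted p = 0.112, permutation within batches), and the adjusted p was 1 in Drd2+ and 0.3 in second Drd1+ neurons. In second Drd1+ neurons, leaving out a batch moved it as low as 0.0159.

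Barcodes that the authors removed as doublets give a reference. Of kept nuclei with a Drd1 UMI, 9.07% also had a Drd2 UMI (8.60% to 9.56%). Among barcodes called doublets of 2 strains by Demuxlet, which assigns barcodes to strains by genotype, this share was 43.7% (42.3% to 45.1%), and 2131 of 14313 had both. Among the 6719 that DoubletFinder, which finds expression profiles like a mix of 2 clusters, had called, it was 14.2% (12.3% to 16.3%). Thinned to 3000 UMIs the shares were 4.61%, 19.7% and 5.38%. Doublets of 2 nuclei from the same strain cannot be seen by genotype, and how many kept nuclei are of this kind was not tested.

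**Figure D4:**
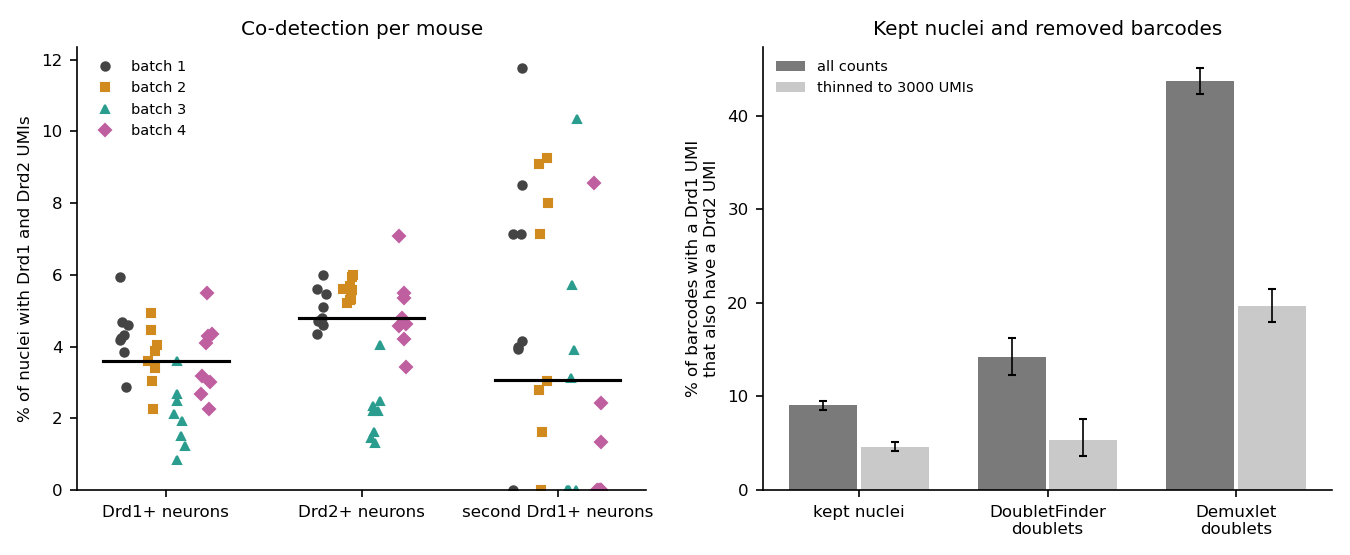
Left, percent of nuclei with UMIs of both Drd1 and Drd2 per mouse (points, marked by batch) in 3 clusters, with the median over the 32 mice as a line. Right, percent of barcodes with a Drd1 UMI that also had a Drd2 UMI, for kept nuclei and removed doublets, from all counts and after thinning to 3000 UMIs, with exact 95% intervals; it is 9.07% in kept nuclei and 43.7% in Demuxlet doublets.

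The co-detecting nuclei were compared, mouse by mouse, with nuclei of the same cluster that had 1 of the receptors. In Drd1+ neurons, 473 nuclei with both and 8236 with Drd1 alone, from 24 mice, differed in 50 of 8680 genes (0.576%, edgeR with the mouse as a block). The 35 that rose (0.403%) were led by Grik3, Chrm3, Unc5d, Ptprm and Nell1. Grik3, a kainate receptor subunit, stood at 43.1 CPM against 3.18 and was higher in 24 of 24 mice (3.72 log2, SE 0.19, adjusted p = 9.3e-38). The level of Grik3 was 201 CPM in the Drd2+ cluster and 50.5 in second Drd1+ neurons. Chrm3, a muscarinic receptor, rose by 2.95 log2, Unc5d, a netrin receptor, by 2.93, Ptprm, a receptor phosphatase, by 2.88 and Nell1 by 2.55. Chrm3 and Nell1 were also higher in the Drd2+ cluster than in second Drd1+ neurons, while Ptprm (893 CPM in second Drd1+ and 398 in Drd2+ neurons) and Unc5d (314 and 203 CPM) were higher in second Drd1+ neurons. Of the indirect pathway markers, Penk, the enkephalin precursor (276 against 94.9 CPM), and Adora2a, an adenosine receptor (44.4 against 8.53 CPM), rose; they were the 2 tested of 5.

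The 15 that fell (0.173%) included 3 of the 4 direct pathway markers tested. Isl1, a transcription factor of direct pathway neurons, fell by 0.74 log2 (13.9 against 22.7 CPM, adjusted p = 0.0429), Pdyn, the dynorphin precursor, by 0.56 (36.1 against 52.4 CPM) and Tac1, the substance P precursor, by 0.24. Zfp521 fell by 0.49, Clstn2 by 0.44 and C2cd2 by 0.42. Of the 35 genes that rose, 34 were higher in the Drd2+ than in the Drd1+ cluster, and all 15 that fell were lower there; 41.6% of all genes tested were higher in the Drd2+ cluster. Set against second Drd1+ neurons in place of the Drd2+ cluster, 31 of the 35 were higher and 9 of the 15 lower there than in Drd1+ neurons. The share of all genes tested that were higher in second Drd1+ neurons was not computed. These last counts therefore do not measure likeness to that cluster. The 5 markers of projection neurons in general did not change (median log2 difference 0.00, as over all genes). Drd3 did not differ (16.1 against 14.7 CPM, adjusted p = 0.940).

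In Drd2+ neurons, 553 nuclei with both and 9172 with Drd2 alone, from 26 mice, differed in 32 of 8814 genes (0.363%), with 19 higher (0.216%) and 13 lower (0.147%). Lingo2, a neuronal surface protein, stood at 445 against 29.7 CPM and was higher in 26 of 26 mice (3.87 log2, SE 0.17, adjusted p = 2.41e-14 by edgeR); in the Drd1+ cluster it stood at 2493 CPM. Ebf1, a transcription factor, rose by 3.41 log2, Adarb2 by 3.03, Il1rapl2 by 2.11, Erbb4, a neuregulin receptor, by 1.61 and Tac1 by 1.05. Penk fell by 0.31 (856 against 1077 CPM, lower in 25 of 26 mice), Adora2a by 0.28, Gm16835 by 0.80, Slit2 by 0.54, Gm36975 by 0.37 and Prkd1 by 0.31. In nuclei of medium depth alone the differences of Erbb4 (−0.028 log2) and Slit2 (0.31 log2) had the opposite sign, and neither passed. All 19 that rose were higher in the Drd1+ than in the Drd2+ cluster and 12 of the 13 that fell were lower there, beside 56.6% of all genes tested that were higher in the Drd1+ cluster. Second Drd1+ neurons were above Drd1+ neurons for 8 of the 19 and below them for 4 of the 13. These counts do not set them against Drd2+ neurons, the cluster of these nuclei, and the matching share over all genes tested was not computed. Between second Drd1+ and Drd2+ neurons, Lingo2 stood at 706 against 55.4 CPM, Adarb2 at 2626 against 13.99 and Erbb4 at 4859 against 43.5. Ebf1 was also higher in second Drd1+ neurons (15.04 against 7.43), while Il1rapl2 was lower (14.08 against 20.8). Of genes that fell, Penk, Slit2 and Prkd1 were lower there, and Gm16835 and Gm36975 higher.

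Doublets of a Drd1+ and a Drd2+ nucleus, free RNA and neurons with both programmes cannot be told apart from these counts. With DESeq2's size factors in place of TMM, 45 genes rose and 11 fell in Drd1+ neurons and 26 rose and 7 fell in Drd2+ neurons. Without the mouse as a block, 16 and 7 genes passed, and 15 and 7 of them were higher. The number of calls was 25 in Drd1+ neurons without batch 1, and 16, 14 and 17 in Drd2+ neurons without batches 1, 2 and 4. In nuclei of medium depth alone, 5 and 7 mice remained and 0 genes passed (338 and 297 at an unadjusted p under 0.05).

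**Figure D5:**
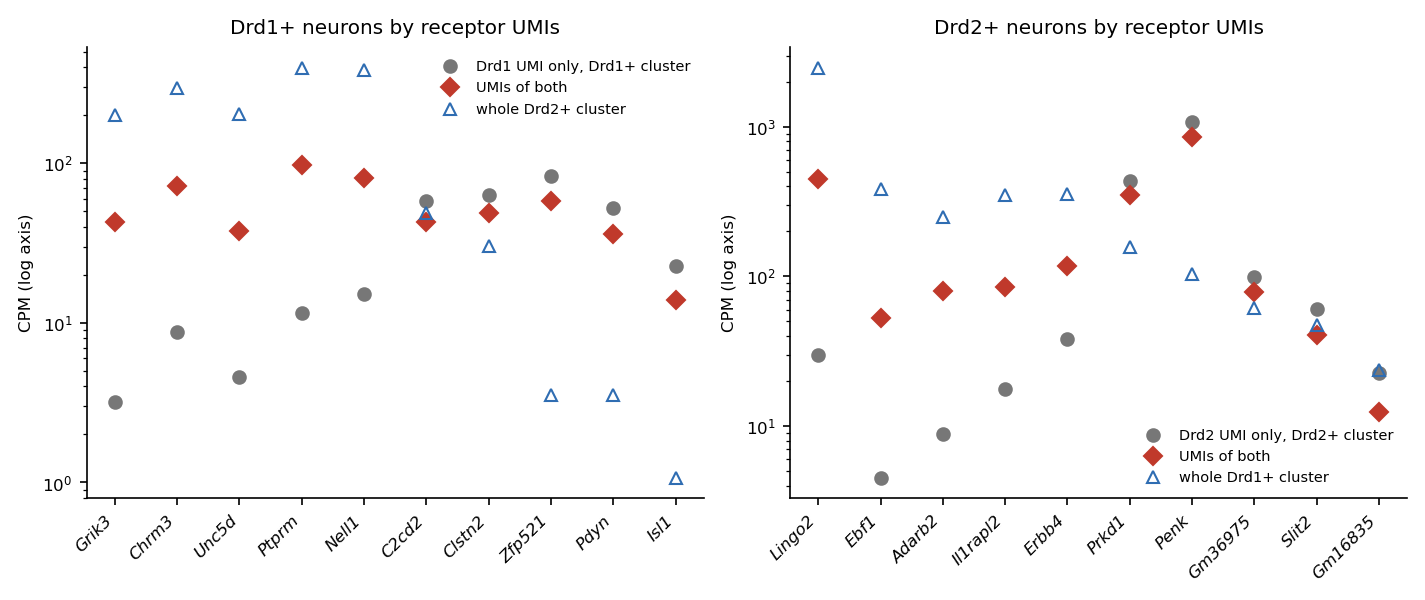
Level (CPM, vertical log axis) of the 5 genes with the largest rises and the 5 with the largest falls that passed (at least 10 CPM in either kind of nuclei), in nuclei with UMIs of both receptors, in Drd1+ neurons (left) and Drd2+ neurons (right). Circles are nuclei with 1 receptor, diamonds nuclei with both and open triangles the whole cluster of the other type. The diamonds of the rising genes lie between circle and triangle, as for Grik3 (3.18, 43.1 and 201 CPM).

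Nuclei with a Drd3 UMI were compared with other Drd1+ neurons in the same way. Summed over 31 mice, 1192 nuclei with and 13839 without a Drd3 UMI differed in 640 of 9835 genes (6.51%, edgeR with the mouse as a block), 293 higher (2.98%) and 347 lower (3.53%); with DESeq2's size factors 358 were higher and 274 lower. Pde1a, a calmodulin-dependent phosphodiesterase of cyclic nucleotides, stood at 160 against 61.9 CPM (1.24 log2, SE 0.16, adjusted p = 1.2e-06) and Csgalnact1, an enzyme of chondroitin sulfate synthesis, rose by 1.33. Gm33948 rose by 1.40, Gm2516 by 1.07 and 4930555F03Rik by 1.06. Frem2, an extracellular matrix protein, was lower in 31 of 31 mice (10.4 against 31.7 CPM, −1.46 log2, adjusted p = 2.73e-15). Gpr139, an orphan receptor, fell by 2.00 log2 (4.87 against 21.6 CPM), Shisa6, an AMPA receptor partner, by 1.51, Gm42705 by 1.40 and Gm6260 by 1.31.

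Among the marker lists, 4 of the 5 markers of projection neurons in general fell in nuclei with a Drd3 UMI (among them Pde10a by 0.26, Bcl11b by 0.20 and Rgs9 by 0.17 log2). Of 4 direct pathway markers tested, Pdyn rose by 0.46 and Eya1 fell by 0.64. Of 2 eccentric markers tested, Tshz1 rose by 0.42, and neither of the 2 indirect pathway markers passed. Drd2 was higher in these nuclei (18.6 against 11.8 CPM, 0.71 log2, adjusted p = 5.41e-04 by edgeR), where oligodendrocytes had 15.2 CPM, and Drd1 did not pass (214 against 224 CPM, adjusted p = 0.184). The median depth was 6691 UMIs with and 6483 without a Drd3 UMI. In nuclei of medium depth alone the count was 369 genes and without the mouse block 250.

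A Drd1 UMI was present in 72.5% of Drd1+ neurons with a Drd3 UMI and in 72.2% of those without. In second Drd1+ neurons these shares were 65.3% and 46.9%, at median depths of 5446 and 4412 UMIs, and 46.2% and 39.5% after thinning to 3000 UMIs. In Drd2+ neurons a Drd2 UMI was present in 84.7% of nuclei with a Drd3 UMI and in 85.7% of those without. A Drd1 UMI was present in 9.96% of Drd2+ neurons with a Drd3 UMI (6.72% to 14.1%, 28 of 281) and in 4.90% of those without, and after thinning in 3.23% and 2.33%. A Drd2 UMI was present in 6.24% of Drd1+ neurons with a Drd3 UMI (4.94% to 7.77%) and in 4.51% of those without, and after thinning in 2.67% and 2.24%. These shares are descriptions over nuclei and were not tested.

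Over the 18 clusters, the genes most like each receptor were found by Pearson correlation of log2(CPM + 1) over pooled values, among 15711 genes. The 18 points share libraries and batches, and no p is given. For Drd1 they were Tac1 (r = 0.825), Pdyn (0.748), Lrpap1 (0.739), Vgf (0.703) and Il20ra (0.703). For Drd2 the first was Ankk1 (r = 0.861), the next gene along chromosome 9 (49415194 to 49427041). Its nearer edge lies 7016 bases after the annotated end of Drd2, and its strand is not given here. Ankk1 stood at 8.26 CPM in Drd2+ neurons, 13.5 in Chat+ interneurons and 0.317 in Drd1+ neurons. How reads past the end of Drd2 were assigned was not tested. Gpr52 (0.754), Oprd1, the delta opioid receptor (0.746), Calb1 (0.741) and Hbegf (0.732) followed.

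For Drd3 the most alike were Gm44593 (0.855), Gm1604a (0.822), Gad2 (0.789) and Gad1 (0.780), which make GABA, and Camk1g (0.772). For Drd5 they were Mtnr1a (0.906), Gm34623 (0.905), Hcn4 (0.904), Qrfprl (0.899) and Lnp1 (0.897), each highest in Chat+ interneurons; this rests on the 12 Drd5 counts there. Over the 32 mice, Drd1 in Drd1+ neurons was most like Gm20342 (0.813), Otulinl (0.808) and Ppil2 (0.783) among 9050 genes. Drd2 in Drd2+ neurons was most like Adcy5, the adenylyl cyclase of striatal projection neurons (0.841), Lars2 (0.835) and Fam110b (0.826) among 8905 genes. These correlations pool mice of 4 batches with no batch term, and batch means of Drd2 in Drd2+ neurons ran from 345 to 486 CPM; values within batches were not computed.

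Across mice, 3 relations of receptor levels were computed on log2 CPM, with p-values from permutations adjusted over the 3. Drd1 in Drd1+ and in second Drd1+ neurons rose together (r = 0.564, p = 7.4e-04, adjusted p = 0.00222, Spearman rho = 0.518, adjusted p = 0.00888, n = 32). Within batches 1 to 4, r was 0.764, 0.0955, 0.761 and −0.0646. None of these 4 values of r passed (permutation adjusted p = 0.105, 0.819, 0.0901 and 0.879, n = 8 each), while Spearman's rho passed in batch 1 alone (0.881, permutation adjusted p = 0.0217). Without the 2 mice farthest from the median r was 0.433 (adjusted p = 0.0482), and without batch 3 it was 0.289 (adjusted p = 0.341). Batch 3 also had the highest mean of Drd1 in both clusters, 262 CPM in Drd1+ neurons and 288 in second Drd1+ neurons, each on its own scale.

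Drd1 in Drd1+ neurons and Drd2 in Drd2+ neurons ran in opposite directions over all mice (r = −0.450, p = 0.00968, adjusted p = 0.0145 by permutation, rho = −0.342, adjusted p = 0.0831). Within batches 1 to 4, r was 0.174, 0.124, −0.115 and −0.0910, and the relation did not hold there. It also did not hold without the 2 mice farthest from the median (r = −0.305, adjusted p = 0.153), without batch 2 (r = −0.354, adjusted p = 0.133) or without batch 3 (r = −0.257, adjusted p = 0.341). Drd1 in Drd1+ and in Drd2+ neurons showed no relation that passed (r = −0.200, p = 0.273, adjusted p = 0.273 by permutation, rho = −0.287, adjusted p = 0.110; within batches 0.0819, 0.209, −0.123 and 0.527). Without the 2 farthest mice r was −0.0750, without batch 4 it was −0.464 (adjusted p = 0.0222) and without batch 3 it was 0.186.

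The receptors act through G proteins, adenylyl cyclase and proteins that end the signal. A list of 34 genes held these, genes of dopamine supply, Drd4 and Adora2a. Of them, 28 were tested in each of the 2 large clusters. In each, 19 passed the strain test (61.7% and 55.9% of all genes passed), 14 of them in both. Drd4, Kcnj6, Grk3, Th and Slc6a3 were tested in neither. Of the transducers, Gng7, a gamma subunit of the striatal G protein, ran from 363 CPM in NOD/ShiLtJ to 525 in PWK/PhJ in Drd1+ neurons and from 442 in NZO/HlLtJ to 637 in PWK/PhJ in Drd2+ neurons. Gnai1, an inhibitory alpha subunit, ran from PWK/PhJ to NZO/HlLtJ in both (43.3 to 71.0 and 16.02 to 39.2 CPM). Gnal, the stimulatory alpha subunit of projection neurons, did not pass in either (adjusted p = 0.0905 and 0.0813, edgeR).

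Of the effectors, Adcy5 ran from 572 CPM in PWK/PhJ to 688 in C57BL/6 in Drd1+ neurons, and Ppp1r1b, which encodes DARPP-32, from 141 in NZO/HlLtJ to 183 in NOD/ShiLtJ. Among genes that end or tune the signal, Rgs9, a brake on G protein signalling, was lowest in NZO/HlLtJ and highest in C57BL/6 in both clusters (652 to 922 and 690 to 979 CPM). Caly, a receptor-interacting protein, was lowest in CAST/EiJ and highest in WSB/EiJ in both (64.6 to 104 and 60.3 to 101 CPM), as was Gprasp1, a receptor sorting protein (185 to 268 CPM in Drd1+ neurons).

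Against the mean of the other 7 strains in Drd1+ neurons, NZO/HlLtJ had the most calls (4 higher and 6 lower of 28), followed by PWK/PhJ (4 and 4) and CAST/EiJ (3 and 4). In those contrasts 19.7%, 34.3% and 32.8% of all genes were called. In Drd2+ neurons the order was another, with 11 calls in PWK/PhJ, 8 in WSB/EiJ, 7 in NZO/HlLtJ, 5 in NOD/ShiLtJ and 3 in CAST/EiJ of 28, where 30.3%, 15.3%, 18.5%, 12.1% and 28.1% of all genes were called. C57BL/6 had the fewest in both clusters, 1 gene, where 13.9% of all genes were called in Drd1+ and 11.1% in Drd2+ neurons.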

How the data were processed

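Nuclei of frozen striatum were profiled for RNA and open chromatin together (10x Multiome). Per the submitters' processing notes, reads were handled with bcl2fastq 2.20.0.422 and Cell Ranger ARC 2.0.0 on the mouse build mm10/GRCm38; strand handling, and whether intronic reads were counted, are not given in the sources used here. That build comes from C57BL/6J, and differences in mapping between strains were not measured here. The authors deposited raw UMI counts per gene and barcode for each batch, and a table of other values per barcode: strain calls, doublet calls, quality measures and cluster names. The deposited counts were used unscaled; the 55672 kept nuclei have between 200 and 7500 genes and at most 15% mitochondrial counts, the limits that the authors' deposited description gives. The matrix of chromatin counts was not used here; its list of regions was.

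The strain and cluster of a nucleus came from the deposited table, and doublets were those the authors had called and removed. Counts were summed per mouse and cluster (at least 10 nuclei) and fitted with edgeR 4.0.16 in R 4.3.3 (robust quasi-likelihood, TMM, filterByExpr, strain and batch as terms). A cluster was fitted when at least 3 mice of every strain remained; 9 clusters had too few, and their strain differences have no test. Benjamini-Hochberg adjustment ran over all genes tested in a fit, with a threshold of 0.05. The strain fits were also run on counts simulated without batch differences, so those runs do not show how the fits handle batches. Their outcome is not given here. Each batch pooled 1 mouse of every strain, per the labels, so the batch number pairs the mice and the batch was a term in every strain test. Shares of nuclei were tested by permuting strains within batches (100000 resamples, two-sided), with Python 3.11.15, numpy 2.4.6, scipy 1.17.1 and pandas 2.3.3. Thinning drew 1000 or 3000 UMIs per nucleus without replacement and left out shallower nuclei. CPM by cluster, marker sums and Drd2 by strain in Chat+ interneurons used raw totals. Other CPM by strain used TMM-scaled totals over the genes tested in a cluster, scaled separately for each cluster.

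Alternatives were DESeq2 1.42.0, DESeq2's size factors in edgeR, no filter, no batch or mouse block, libraries of at least 20 nuclei, nuclei between the 25 and 75 percentiles of UMIs, 2 UMIs for detection, thinning, and leaving out each batch. The comparison of Drd1+ with second Drd1+ neurons, the relations without the 2 farthest mice and the thinned doublets were added after seeing the data. The genes, lists and tests were chosen with earlier results of these data known. Named genes were the receptors, the 5 genes most like each over clusters (3 over mice), the 5 largest rises and falls with at least 10 CPM in each comparison of nuclei, markers, and pathway genes called in both large clusters; Gnal was named outside this rule after its values were seen. Some genes of these lists are counted but not reported by name here.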

Additional observations from a re-analysis of the deposited data

Results flagged for a closer look

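Within strains, 80 groups of 4 mice were examined for a mouse that stood far from the other 3. Such a mouse was found in 2 groups, fewer than the about 1 in 20 that chance alone gives. Drd1 in second Drd1+ neurons stood at 405 CPM in the A/J mouse of batch 3, against 181 to 212 CPM in the other 3 A/J mice. Batch 3 had the highest mean over its mice there, 288 CPM, against 174 to 191 CPM in the other batches. Drd2 in Drd1+ neurons stood at 28.3 CPM in the A/J mouse of batch 1, against 7.50 to 10.997 CPM in the others. In Drd1+ neurons the markers of indirect pathway neurons were highest in A/J, at a summed 172 to 236 CPM per mouse, and their part in this value was not tested.

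The strain effects on 2 receptors differed between Drd1+ and second Drd1+ neurons in the test of that difference. This test was added after the levels in both clusters had been seen, so the ranks below are not separate support for it. For Drd3 the adjusted p was 7.13e-06 (edgeR, 32 mice), with NOD/ShiLtJ highest in second Drd1+ neurons in 4 of 4 batches and NZO/HlLtJ highest in Drd1+ neurons in 3 of 4. For Drd2 it was 0.00427, at 11.9 and 20.01 CPM in the pooled nuclei of the 2 clusters, against 15.2 in oligodendrocytes. The Drd2 difference missed the threshold without the mouse as a block (adjusted p = 0.487, edgeR) and without batch 2 (0.0884). Of all genes tested, 529 of 12440 passed this test.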

How the results depend on the processing

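Across the alternatives, 326 values that answer a comparison stayed, 39 moved, 9 gained the threshold, 20 lost it and 2 changed sign. A tested value stayed if it kept its side of the threshold and any direction. A count of calls or a level stayed if it lay near the main value. In the projection neuron clusters, libraries of at least 20 nuclei were the same libraries as in the main fit. Those values could not change and are counted among the values that stayed. Of the values for single genes or sites, 323 stayed, 71 lost the threshold, 2 gained it, 20 moved and 4 changed sign. The cause of these changes was not tested. With DESeq2, the strain term of Drd2 in Drd1+ neurons passed (adjusted p = 0.0192), and 0 strains differed in Drd2 in Drd2+ neurons, against 1.

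Without the filter on low counts, Drd2 passed in Drd1+ neurons (1.85e-07), Drd2+ neurons (0.0211) and second Drd1+ neurons (0.0415). Drd3 passed in astrocytes (adjusted p = 4.56e-05, edgeR), where it was not tested with the filter. The difference in strain effect on Drd3 between Drd1+ and Drd2+ neurons passed too (0.0251), and 4 strains in place of 2 differed in Drd3 in Drd1+ neurons. The comparisons of nuclei called 942, 631 and 1751 genes in place of 50, 32 and 640. Of these calls, 853, 603 and 1574 were lower. The median log2 difference over all genes moved to −0.187, −0.181 and −0.151. Nuclei with both receptors in Drd1+ neurons had 4866200 counts, against 59397100 for Drd1 alone. The part of this in the calls was not tested.

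Without the replicate block (batch or mouse), Drd2 over all projection neurons missed the threshold (0.288), as did the Drd2 difference between Drd1+ and second Drd1+ neurons (0.487) and the share of Drd2+ neurons with Drd2 (1). Strains that differed numbered 2 for Drd1 and 0 for Drd2, pairs of strains 8 and 0, and genes in the comparisons of nuclei 16, 7 and 250.

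In nuclei of medium depth, Drd3 in Drd2+ neurons missed the threshold (0.147). There 1 strain differed in Drd3 in Drd2+ neurons, 0 strains and 1 pair in Drd2 in Drd2+ neurons, and the comparisons of nuclei called 0, 0 and 369 genes. Erbb4 (−0.028) and Slit2 (0.31) changed sign there. Drd3 in nuclei with both receptors changed sign without the filter (−0.0034) and without batch 2, and ran from −0.074 to 0.396 with single batches left out.

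Requiring 2 UMIs, the shares with Drd3 missed the threshold in Drd1+ and second Drd1+ neurons (0.0985 each). Thinned to 3000 UMIs, those of Drd2 in Drd2+ neurons (0.582) and of Drd3 in second Drd1+ neurons (0.0825) did. The share with both receptors in Drd1+ neurons was 0.526% at 2 UMIs, 0.136% thinned to 1000 and 0.957% thinned to 3000; in Drd2+ neurons it was 0.674%, 0.288% and 1.63%. The 3 relations over strain means had r of 0.680, −0.192 and 0.318, and the second had −0.305 without the 2 farthest mice.

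Leaving out each batch gave adjusted p of 0.00959 to 0.268 for Drd2 in Drd1+ neurons, 0.00236 to 0.169 for Drd3 in Drd2+ neurons, 0.0282 to 0.869 for the Drd3 difference between Drd1+ and Drd2+ neurons and 0.00166 to 0.0884 for the Drd2 difference between Drd1+ and second Drd1+ neurons. It gave 0.0159 to 1 for both receptors in second Drd1+ neurons and 0.00464 to 0.133 for the Drd2 share in Drd2+ neurons. Strains that differed numbered 1 to 2 for Drd3 in Drd1+, 0 to 2 in Drd2+ and 0 to 2 in second Drd1+ neurons, and 0 to 1 for Drd2 in Drd2+ neurons (0 to 2 pairs). The comparisons of nuclei with both receptors called 25 to 47 and 14 to 33 genes. The relations ran from 0.289 to 0.742, from −0.518 to −0.257 and from −0.464 to 0.186. Depth limits the tests of Drd5, and few nuclei per mouse left some clusters without a strain test.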
